A study of Mus musculus with 3 samples.

Results

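Splicing factor and hnRNP genes were followed in mouse liver RNA across genotype and diet. Members were the gene symbols beginning with Srsf, Sf3a, Sf3b, Snrp, Hnrnp or Prpf and, for Srsf and Prpf, a number. The rule found 62 genes among 23850 rows per table. None of the symbols was repeated, and each of the 62 had an estimate in all 3 libraries. They comprised 8 Sm core genes, 12 genes of the U1 and U2 particles, 13 Prpf genes, 11 SR protein genes and 18 hnRNP genes. Genes whose symbols begin with Snrnp, such as Snrnp70, lie outside the rule and are given further on.

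Total RNA depleted of ribosomal RNA was sequenced from liver of mice of 16 weeks on a C57BL6J/FVB background. Each of 3 groups had 1 library. The first was wild type fed ad libitum (wt AL), the second the Ercc1 delta/- mutant fed ad libitum (Ercc1 AL), and the third the same mutant under diet restriction (Ercc1 DR). The mutant carries a delta allele over a - allele of Ercc1, which encodes a subunit of a DNA repair endonuclease. The labels name no Cre driver or transgene, and a restricted wild type was not analysed here. The labels do not state the sex, the number of animals per library or the degree of restriction. With 1 library per group no difference has a replicate check, so no test, SD or p-value is given, and fewer cells of a type cannot be told apart from less RNA per cell.

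The spliceosome removes introns from pre-mRNA in a series of steps carried out by small nuclear ribonucleoproteins (snRNPs). Each snRNP of the Sm class holds a ring of Sm proteins around its RNA. The U1 particle marks the start of an intron, and the U2 particle, through its SF3A and SF3B subcomplexes, binds the branch point. The U4/U6.U5 particle, which holds several Prpf proteins, then joins and is rearranged. SR proteins bind exons and favour their inclusion, whereas many hnRNPs bind pre-mRNA and repress or shift splice sites. Many of these genes limit their own output through alternative transcripts that are degraded by nonsense-mediated decay or held in the nucleus with a retained intron. Gene-level values add such transcripts to the coding ones.

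Levels are given as FPKM, a read density normalised to transcript length and library size, with the lower and upper bound deposited for each value. The general level differed between libraries. The median log2 FPKM ratio over the 9109 rows with at least 1 FPKM in all libraries was 0.49 for Ercc1 AL against wt AL, 0.33 for Ercc1 DR against Ercc1 AL and 0.78 for Ercc1 DR against wt AL. Ratios below are log2 ratios of FPKM + 1 after removal of that median, unless called as deposited, so they are relative to the typical expressed row. A member was called at 2-fold or more on that scale, and ratios were taken where either library had at least 1 FPKM. A library pair was said to have separate intervals for a gene where the deposited bounds, rescaled in the same way, did not overlap. These bounds cover the counting and assignment of fragments in 1 library only. At the median member they reached 10.3% of the midpoint to either side in wt AL, 7.74% in Ercc1 AL and 7.18% in Ercc1 DR.

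Hepatocyte markers were abundant in each library. Summed over 9 measured hepatocyte markers, FPKM was 3188 in wt AL, 4427 in Ercc1 AL and 9290 in Ercc1 DR, while Alb had no estimate in any library. The summed level of 8 sinusoidal endothelial markers was 42.7, 36.5 and 17.3 FPKM in that order, and no marker of any list was at 0. As deposited, Serpina1a alone of the measured hepatocyte markers was lower in Ercc1 DR than in wt AL. Lyve1 alone of the endothelial markers was higher. The 7 macrophage markers summed to 15.8, 20.1 and 13.6 FPKM and the 8 stellate cell markers to 21.7, 37.4 and 42.2 FPKM. Of the macrophage markers, Cd5l, Emr1 and Vsig4 were higher in Ercc1 DR than in wt AL as deposited, and the others lower. Dcn alone made up 13.5, 24.5 and 30.8 FPKM of the stellate sums. As deposited, Dcn, Rgs5, Lrat and Col1a1 were higher in Ercc1 DR than in wt AL, and Acta2, Col3a1, Des and Reln were lower. The sums were 6.52, 4.44 and 4.78 FPKM for 5 cholangiocyte markers and 8.04, 5.86 and 2.90 FPKM for 4 neutrophil markers. Krt7 made up 2.37, 0.807 and 0.242 FPKM of the former and Mpo 6.41, 3.50 and 1.24 FPKM of the latter. Krt7 and Spp1 were lower in Ercc1 DR than in wt AL, and Sox9, Krt19 and Epcam higher. Mpo, S100a9 and Elane were lower there, and S100a8 higher. For 8 genes of dividing cells the sums were 6.55, 9.72 and 14.3 FPKM. Of these, Pcna alone made up 3.18, 5.79 and 11.1 FPKM, and no other gene of that list reached 1 FPKM in any library. All these sums are of FPKM as deposited. None of 7 lymphocyte markers reached 1 FPKM in any library. Splicing genes are used by every cell type, and the part of these shifts in the ratios below was not tested.

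The members were moderately expressed. Their median was 2.81 FPKM in wt AL, 3.93 in Ercc1 AL and 6.48 in Ercc1 DR, beside 2.73, 3.08 and 4.21 FPKM over all rows with at least 1 FPKM. At least 5 FPKM was reached by 18, 24 and 36 of the 62 members in that order, which is 29.0%, 38.7% and 58.1%, beside 13.8%, 17.5% and 20.4% of all rows with an estimate. Summed over members, FPKM came to 258, 372 and 560. The hnRNP genes took the largest part of each sum, with 121, 170 and 252 FPKM. By deposited FPKM, 53 of the 62 were lowest in wt AL and highest in Ercc1 DR, with Ercc1 AL between. The general level of expressed rows rose in the same order, by the medians of 0.49 and 0.33 given above. The share of all rows with this order was not counted, so it is not read as particular to the members. The reverse order was found in 3 members, Hnrnpul1, Hnrnpd and Hnrnph3. Only Srsf12, Prpf40b and Hnrnph3 stayed under 1 FPKM in all 3 libraries. Srsf12, an SR-related gene of restricted expression, was lowest throughout, at 0.161 FPKM in wt AL, 0.245 in Ercc1 AL and 0.0742 in Ercc1 DR.

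**Figure D1:**
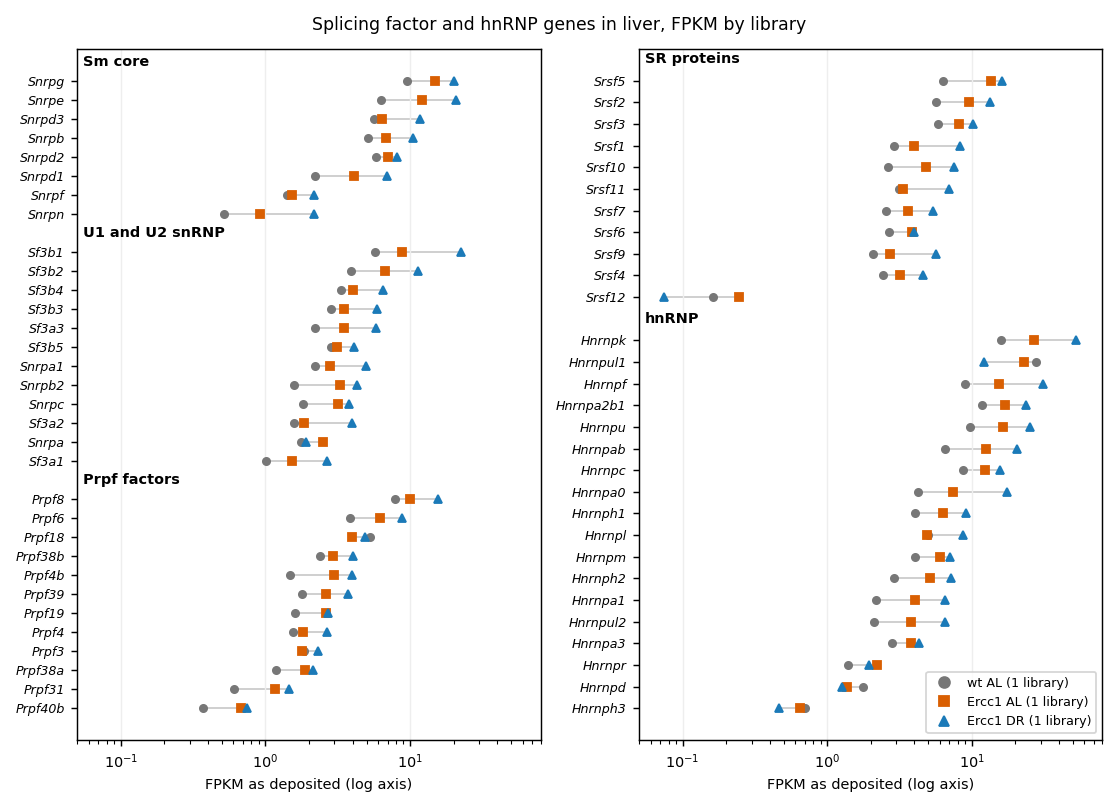
Deposited FPKM of the members, with 1 left out (log axis), in wt AL (grey circles), Ercc1 AL (orange squares) and Ercc1 DR (blue triangles), 1 library each, grouped by role and ordered by mean FPKM, with a line from the lowest to the highest value. In most of them wt AL is lowest and Ercc1 DR highest as deposited, while Hnrnpul1, Hnrnpd and Hnrnph3 lie in the opposite order. The general level of expressed rows also rises from wt AL to Ercc1 DR as deposited.

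In Ercc1 AL against wt AL, no member was 2-fold higher or lower. The median ratio of the 58 measured members was 0.05, beside 0.01 over all 12359 measured rows, of which 2.35% were called higher and 4.90% lower. As deposited, too, 0 members were called in either direction, with 5.80% of rows higher and 2.20% lower. Ratios were above 0 for 36 members (62.1%), beside 50.9% of rows. Intervals were separate and higher for 17 members and separate and lower for 8, which is 29.3% and 13.8%, beside 24.1% and 27.6% of rows. Ratios of members ran from -0.74 for Prpf18 to 0.55 for Srsf5.

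In Ercc1 DR against Ercc1 AL, 1 of 59 measured members, Hnrnpul1, was at least 2-fold lower and 0 were at least 2-fold higher, where 12.0% of rows were lower and 3.12% higher. The median ratio of members was 0.16, beside -0.06 over 12361 rows. Ratios were above 0 for 45 members (76.3%), beside 44.8% of rows. Intervals were separate and higher for 29 members and separate and lower for 6, or 49.2% and 10.2%, beside 29.6% and 38.2% of rows. As deposited, 2 members, Sf3b1 and Hnrnpa0, were at least 2-fold higher and 0 lower, with 6.50% of rows higher and 8.71% lower, so the call of Hnrnpul1 rests on the rescaling in this pair.

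In Ercc1 DR against wt AL, Hnrnpa0 and Sf3b1 were at least 2-fold higher and Hnrnpul1 at least 2-fold lower among 59 measured members, where 6.02% of rows were higher and 16.4% lower. The median ratio of members was 0.24, beside -0.03 over 12127 rows. Ratios were above 0 for 46 members (78.0%), beside 48.0% of rows. Intervals were separate and higher for 33 members and separate and lower for 5, or 55.9% and 8.47%, beside 33.7% and 38.1% of rows. As deposited, 24 members were at least 2-fold higher and 1 lower, beside 24.0% and 8.63% of rows. Each pair of these comparisons shares a library, so they are not independent of each other.

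Rows also include many predicted gene models, and abundant rows had higher ratios in the restricted library. Over official symbols alone the median ratio was 0.01, -0.01 and 0.03 in the same order of comparisons. Of these symbols, 0.847%, 3.20% and 6.09% were at least 2-fold higher and 4.24%, 7.27% and 12.2% at least 2-fold lower, and 51.2%, 49.2% and 51.8% had a ratio above 0. Separate intervals on the higher side were found for 25.2%, 32.9% and 37.4% of them, and on the lower side for 27.8%, 35.6% and 35.7%. With at least 5 FPKM in either library the median over rows was 0.15 for Ercc1 DR against Ercc1 AL and 0.23 for Ercc1 DR against wt AL, and that of the 36 and 37 members left was 0.29 and 0.42. The distance between members and rows was then 0.14 and 0.19, against 0.23 and 0.28 with the lower minimum. Across the 59 members Spearman's rho of the ratio with mean FPKM was 0.30 in the first of these comparisons and 0.39 in the second, and across 10564 and 10366 official symbols it was 0.32 and 0.28. Genes are not independent replicates, and the mean includes the libraries compared.

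**Figure D2:**
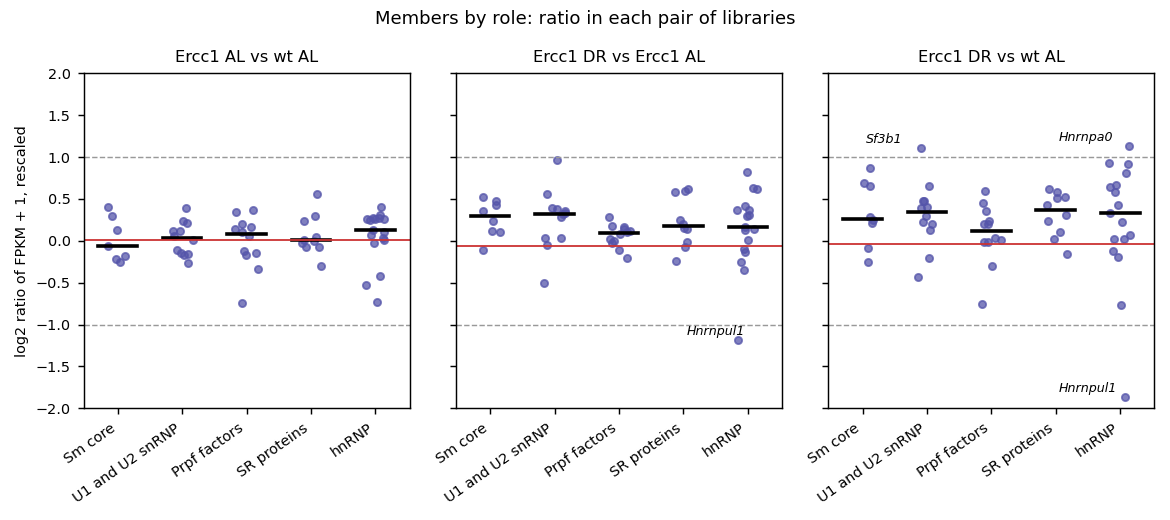
Rescaled log2 ratio of FPKM + 1 of each measured member (points) by role in the 3 pairs of libraries, with the median of each role (black bar), the median of all measured rows (red line) and the 2-fold limits (dashed lines). Role medians lie at or near the red line in Ercc1 AL against wt AL and above it in both comparisons of Ercc1 DR, and Hnrnpul1 lies far below the other members there.

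Promoter sequence is shown for the 3 members past 2-fold, Hnrnpa0 and Sf3b1 on the high side and Hnrnpul1 on the low side. Each run is the 150 bases before the RefSeq transcription start (GRCm38.p6, the assembly that mm10 names), read 5′ to 3′ on the gene's strand, which is minus for all 3. The positions are chr13:58128557-58128706 for Hnrnpa0, chr1:55027479-55027628 for Sf3b1 and chr7:25754760-25754909 for Hnrnpul1. Capitals mark letters that matched a searched motif on either strand.
Hnrnpa0: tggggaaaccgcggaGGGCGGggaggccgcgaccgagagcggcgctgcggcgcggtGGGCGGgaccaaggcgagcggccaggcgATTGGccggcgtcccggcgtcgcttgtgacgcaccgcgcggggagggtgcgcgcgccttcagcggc
Sf3b1: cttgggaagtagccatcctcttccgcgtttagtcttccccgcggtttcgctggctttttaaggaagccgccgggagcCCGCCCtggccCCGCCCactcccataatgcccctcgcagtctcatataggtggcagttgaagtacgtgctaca
Hnrnpul1: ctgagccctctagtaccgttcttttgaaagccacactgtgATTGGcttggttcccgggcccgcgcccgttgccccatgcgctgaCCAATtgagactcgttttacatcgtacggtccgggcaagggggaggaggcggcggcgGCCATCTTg
The run of Hnrnpa0 holds GGGCGG, the SP1 letters, and CCAAT on the other strand, that of Sf3b1 holds GGGCGG on the other strand, and that of Hnrnpul1 holds CCAAT on both strands and the YY1 letters AAGATGGC on the other strand. Hnrnpa0 thus shared GGGCGG with Sf3b1 and CCAAT with Hnrnpul1, and Sf3b1 and Hnrnpul1 shared none of the searched letters in these runs. In the wider window of 250 bases before to 50 after the start, GGGCGG was found in all 3 genes. The RefSeq start of Hnrnpul1 lies 39 bases outside the deposited one. A match is a description of the sequence only.

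Of the 62 members, 55 had an entry in the RefSeq promoter table, covering 250 bases before to 50 after the start. The window nearest to the start of the deposited gene was used, both strands were searched, and motifs could overlap. The ETS letters CCGGAAG were found in 19 of the 55 (34.5%), beside 12.1% of 16332 promoters of all genes in the tables and 17.6% of 8908 promoters of genes with at least 1 FPKM. Among the 19 were Sf3a1, Sf3a2 and Sf3a3, all of the SF3A genes, and Snrpe and Snrpg of the Sm ring. CCAAT was found in 49.1% of members, beside 38.8% of all promoters and 38.9% of those of expressed genes. GGGCGG was in 65.5% of members, and its share went from 47.9% of all promoters to 60.5% of those of expressed genes. CACGTG, the E-box, was in 14.5% of members, beside 8.25% and 10.1% in the same order. AAGATGGC was in 5.45%, beside 3.34% and 4.70%, and TGACGTCA, the cyclic AMP response element, in 3.64%, beside 2.37% and 2.99%. TATAAA was in 10.9% of members, below the 12.9% of all promoters and above the 8.78% of those of expressed genes. The NRF1 motif was in 0 members, beside 1.39% and 1.98%. The ratio of observed to expected CpG had a median of 0.92 in members, 0.59 in all promoters and 0.75 in those of expressed genes. In Ercc1 DR against wt AL the median ratio of the 19 members with the ETS letters was 0.35, and that of the other 33 with a promoter and a measured ratio was 0.22. These medians were 0.15 and 0.15 in Ercc1 DR against Ercc1 AL, and 0.13 and 0.04 in Ercc1 AL against wt AL.

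The Sm core forms the ring shared by U1, U2, U4 and U5. Its 8 genes had a median of 5.38 FPKM in wt AL, 6.65 in Ercc1 AL and 9.27 in Ercc1 DR. After rescaling, 0 of them reached 2-fold in any comparison. In the order of comparisons above, 2.35%, 3.12% and 6.02% of rows were higher and 4.90%, 12.0% and 16.4% lower. As deposited, 4 Sm core genes were at least 2-fold higher and 0 lower in Ercc1 DR against wt AL, beside 24.0% and 8.63% of rows. The median ratio of the Sm core genes was -0.06 in Ercc1 AL against wt AL, 0.30 in Ercc1 DR against Ercc1 AL and 0.26 in Ercc1 DR against wt AL, over 7, 8 and 8 measured genes. Snrpg, the most abundant by mean FPKM, stood at 9.56 FPKM in wt AL, 14.8 in Ercc1 AL and 20.2 in Ercc1 DR, with ratios of 0.13, 0.11 and 0.28. Its intervals overlapped in every pair after rescaling.

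Snrpe stood at 6.26, 12.1 and 20.8 FPKM in the same order of libraries. Its ratio was 0.41 for Ercc1 AL against wt AL, where the intervals overlapped, and 0.43 and 0.87 for Ercc1 DR against Ercc1 AL and against wt AL, where they were separate. The FPKM of both genes lay above its own interval in each library. In Ercc1 DR the bounds were 11.5 to 14.3 FPKM for Snrpe and 9.07 to 11.6 FPKM for Snrpg. In all, 6 members in wt AL, 13 in Ercc1 AL and 19 in Ercc1 DR had an FPKM outside the bounds. Among them were Hnrnpk in every library and Hnrnpa0 and Sf3b1 in Ercc1 DR. The share of all rows outside their bounds was not counted. Snrpn, an imprinted Sm gene best known from neurons, went from 0.516 to 0.920 and 2.15 FPKM, with ratios of 0.52 and 0.66 for Ercc1 DR against Ercc1 AL and wt AL. It was under 1 FPKM in both other libraries. It shares its locus with Snurf, which stayed between 0.204 and 0.298 FPKM.

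Besides the Sm ring, the U1 particle has 2 proteins encoded by members. Snrpa, which binds a stem-loop of U1 RNA, stood at 1.76 FPKM in wt AL, 2.52 in Ercc1 AL and 1.91 in Ercc1 DR. It was the lowest of the 12 U1 and U2 genes in both comparisons of Ercc1 DR, with ratios of -0.50 and -0.43 and separate intervals in each. As deposited these ratios were -0.27 and 0.08, so the direction against wt AL rests on the rescaling. The antisense gene BC024978 shares exonic bases with Snrpa and stood at 1.11, 1.75 and 0.853 FPKM. Snrpc, the other of these U1 proteins, was at 1.83, 3.15 and 3.80 FPKM, with overlapping intervals in every pair.

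The ratio of Ercc1 DR against Ercc1 AL was above 0 for 3 of 3 Sf3a and 5 of 5 Sf3b genes, as it was for 76.3% of all members and 44.8% of rows, with a median of 0.33 for the former and 0.35 for the latter. Against wt AL it was above 0 for 3 of 3 and 4 of 5, beside 78.0% of members and 48.0% of rows, with medians of 0.40 and 0.23, and in Ercc1 AL against wt AL the medians were 0.05 and -0.14. Sf3b1 encodes the branch point subunit that is recurrently mutated in myelodysplasia (chromosome 1, 54985170 to 55027478, minus strand). It stood at 5.71 FPKM in wt AL, 8.79 in Ercc1 AL and 22.7 in Ercc1 DR. The restricted library was the highest, and its bounds of 21.6 to 22.6 FPKM did not overlap those of the others. The FPKM in that library lay just above the upper bound. The ratio of Sf3b1 was 0.11 in Ercc1 AL against wt AL, with overlapping intervals, then 0.96 in Ercc1 DR against Ercc1 AL and 1.11 against wt AL, a 2.15-fold difference.

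Other subunits followed at smaller size. Sf3a2 was at 1.57, 1.85 and 3.98 FPKM, with a ratio of 0.56 in Ercc1 DR against Ercc1 AL. Sf3b2 was at 3.90, 6.67 and 11.3 FPKM, with a ratio of 0.65 in Ercc1 DR against wt AL. Sf3a3, Sf3b3 and Sf3a1 had ratios of 0.33, 0.35 and 0.32 in Ercc1 DR against Ercc1 AL, each with separate intervals. Sf3b5, a small subunit from a gene without introns, was at 2.85, 3.13 and 4.08 FPKM, and its intervals overlapped in every pair. The U2 proteins Snrpa1 and Snrpb2 had ratios of 0.39 and 0.03 in that comparison, and Snrpb2 one of 0.39 in Ercc1 AL against wt AL.

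Prpf genes encode components of the U4/U6.U5 particle and associated factors, several of which are mutated in inherited retinal degeneration. Their median ratios were 0.08, 0.09 and 0.12 in the order of comparisons above over 12 measured genes. Prpf8, the large scaffold protein at the heart of the spliceosome, was the most abundant, at 7.81 FPKM in wt AL, 10.03 in Ercc1 AL and 15.6 in Ercc1 DR. Its ratios were -0.12, 0.29 and 0.20, with separate intervals in each pair. As deposited the first of these was 0.32, so its direction rests on the rescaling. Prpf31 and Prpf3, which hold the U4/U6 part together, differed in Ercc1 AL against wt AL, at 0.20 and -0.34, both with separate intervals.

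Prpf18, a factor of the second splicing step, was the lowest member in Ercc1 AL against wt AL. It stood at 5.29 FPKM in wt AL, 3.98 in Ercc1 AL and 4.88 in Ercc1 DR, so that wt AL was highest as deposited. The ratio was -0.74 in Ercc1 AL and -0.75 in Ercc1 DR against wt AL, with separate intervals, and -0.03 between the mutant libraries. Prpf4b, a splicing kinase, had ratios of 0.34 and 0.46 against wt AL. Prpf19, the ubiquitin ligase of the Prp19 complex, was at 1.60, 2.61 and 2.69 FPKM, with a ratio of -0.21 between the mutant libraries. As deposited that ratio was 0.03.

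SR protein genes had 0 members past 2-fold after rescaling. In the order of comparisons above, 2.35%, 3.12% and 6.02% of rows were higher and 4.90%, 12.0% and 16.4% lower. As deposited, 5 SR protein genes were at least 2-fold higher and 0 lower in Ercc1 DR against wt AL, beside 24.0% and 8.63% of rows. The median ratio of the group was 0.00 in Ercc1 AL against wt AL, 0.18 in Ercc1 DR against Ercc1 AL and 0.37 in Ercc1 DR against wt AL, over 10 measured genes. Srsf5 was the most abundant and the highest member of all in Ercc1 AL against wt AL (chromosome 12, 80945504 to 80950507). It stood at 6.30 FPKM in wt AL, 13.6 in Ercc1 AL and 16.1 in Ercc1 DR. Both mutant libraries were above wt AL, with ratios of 0.55 and 0.52 and separate intervals but under 2-fold, and the ratio between them was -0.08, with overlapping intervals.

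Srsf1, the founding SR protein and a regulator of translation as well as splicing, had another order. It stood at 2.90, 4.01 and 8.34 FPKM, with ratios of -0.02 in Ercc1 AL against wt AL and 0.62 and 0.61 for Ercc1 DR against Ercc1 AL and wt AL. Srsf11 and Srsf9 had ratios of 0.60 and 0.58 in Ercc1 DR against Ercc1 AL, at 6.995 and 5.68 FPKM in the restricted library. Srsf6 was at 2.66, 3.88 and 3.96 FPKM and had the lowest ratio of the group there, -0.24, with separate intervals. As deposited that ratio was 0.02, so its direction rests on the rescaling. Srsf3, which promotes export of mRNA, was at 5.82, 8.20 and 10.2 FPKM with ratios of 0.00, -0.01 and 0.03, and its intervals overlapped in every pair. Srsf2 was at 5.65, 9.58 and 13.5 FPKM, and shares exonic bases with antisense genes.

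**Figure D3:**
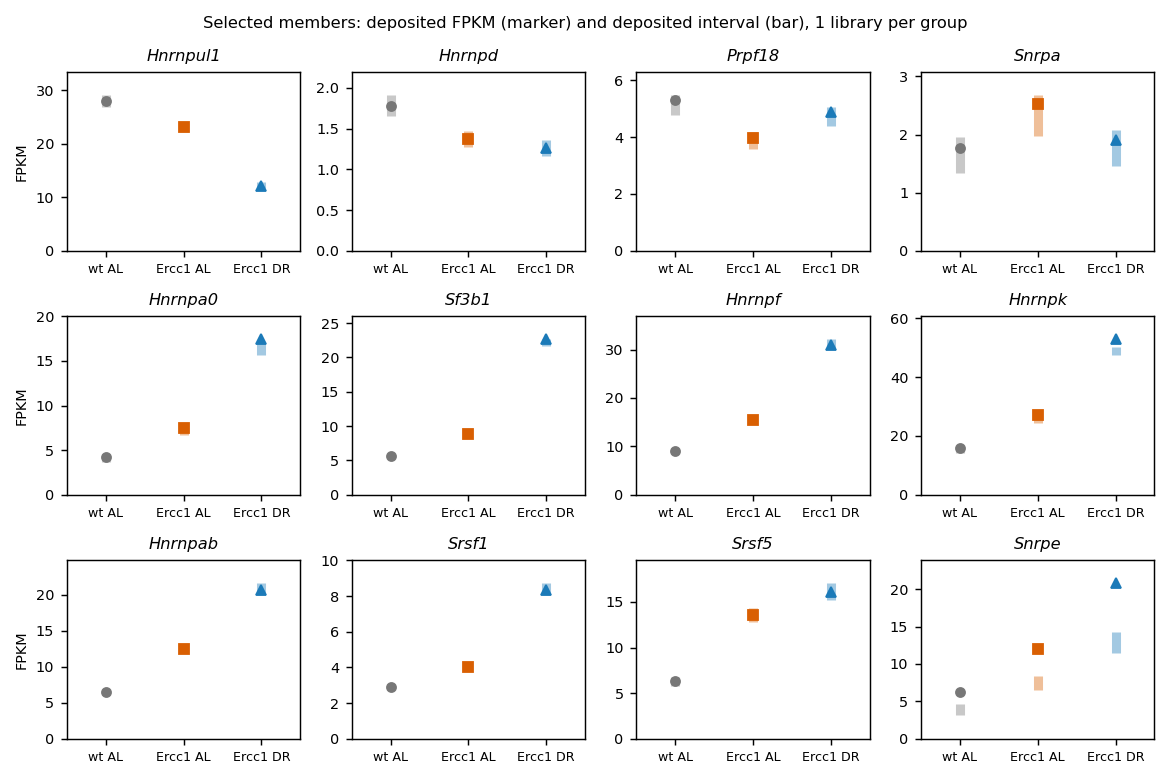
Deposited FPKM (marker) and deposited interval (bar) of 12 members in the 3 libraries, on axes that start at 0. Hnrnpul1 goes from 27.9 to 12.2 FPKM between wt AL and Ercc1 DR while Sf3b1 goes from 5.71 to 22.7 FPKM, and the markers of Snrpe lie above their bars.

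The hnRNP genes spanned the widest range of ratios, from -1.87 to 1.13 in Ercc1 DR against wt AL. Their median ratio was 0.13, 0.16 and 0.33 in the order of comparisons above, over 17 measured genes. Intervals were separate and higher for 8, 9 and 10 of them, or 47.1%, 52.9% and 58.8%, beside 24.1%, 29.6% and 33.7% of rows. They were separate and lower for 3, 3 and 2, or 17.6%, 17.6% and 11.8%, beside 27.6%, 38.2% and 38.1% of rows. The most abundant was Hnrnpk, a poly(C) binding protein and coactivator of p53, at 15.9 FPKM in wt AL, 27.1 in Ercc1 AL and 52.9 in Ercc1 DR. In each library the FPKM of Hnrnpk lay above its own bounds. Its ratios were 0.26, 0.62 and 0.92, with separate intervals in each pair.

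Hnrnpa0, a protein that binds AU-rich elements of mRNA, was the highest member in Ercc1 DR against wt AL (chromosome 13, 58125879 to 58128556, minus strand). It stood at 4.24 FPKM in wt AL, 7.47 in Ercc1 AL and 17.4 in Ercc1 DR, where the FPKM lay above its bounds of 15.7 to 17.1. The ratios were 0.28 in Ercc1 AL against wt AL and 0.82 and 1.13 for Ercc1 DR against Ercc1 AL and wt AL, the last a 2.18-fold difference. Its annotation consists of 1 exon block, so it has no intron. Hnrnpf, which binds G-rich tracts, was at 9.04, 15.5 and 30.8 FPKM, with ratios of 0.26, 0.63 and 0.93. Hnrnpab was at 6.52, 12.5 and 20.7 FPKM, with ratios of 0.40, 0.37 and 0.81.

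Within the A/B subfamily the values differed. Hnrnpa1, a repressor of exon inclusion, was at 2.17, 4.04 and 6.54 FPKM, with a ratio of 0.64 in Ercc1 DR against wt AL. Hnrnpa2b1 was at 11.7, 17.0 and 23.8 FPKM, with a ratio of 0.22, and Hnrnpa3 at 2.79, 3.82 and 4.30 FPKM, with one of -0.12 and overlapping intervals. The predicted models Gm5643 and Gm10052 lie over Hnrnpa1 and Gm6793 over Hnrnpa3, so reads of these genes could be divided among rows. Gm6793 alone stood at 6.64, 9.23 and 12.5 FPKM, above Hnrnpa3 in each library. Hnrnpc, the core particle protein, had ratios of 0.01, 0.01 and 0.07.

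Hnrnpul1 was the lowest member in both comparisons of Ercc1 DR (chromosome 7, 25722039 to 25754720, minus strand). Its protein, a relative of hnRNP U, is known to act in the response to DNA double-strand breaks. It was the most abundant member in wt AL, at 27.9 FPKM with bounds of 26.9 to 29.1. It stood at 23.1 FPKM (22.3 to 24.1) in Ercc1 AL and 12.2 FPKM (11.7 to 12.8) in Ercc1 DR. The order of the libraries was thus the reverse of that in 53 members, and the deposited bounds did not overlap. The ratio was -0.74 in Ercc1 AL against wt AL, -1.18 in Ercc1 DR against Ercc1 AL and -1.87 in Ercc1 DR against wt AL, which is 3.65-fold lower. As deposited these ratios were -0.26, -0.87 and -1.13. No other row of the tables overlaps the gene, and no antisense exon of the GENCODE annotation does.

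Other genes of the hnRNP U family had ratios above 0. Hnrnpu, a nuclear scaffold protein, was at 9.67, 16.3 and 25.4 FPKM, and Hnrnpul2 at 2.11, 3.82 and 6.51 FPKM. Their ratios in Ercc1 DR against wt AL were 0.58 and 0.66. A gene-level FPKM does not show which transcripts of Hnrnpul1 are counted, and the annotation gives it 5 transcripts, 2 of them with a retained intron.

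Hnrnpd, also called AUF1, which promotes decay of AU-rich mRNAs, was also on the low side. It stood at 1.78 FPKM in wt AL, 1.37 in Ercc1 AL and 1.26 in Ercc1 DR, with ratios of -0.53, -0.26 and -0.77 and separate intervals in each pair. It shares exonic bases with the antisense model Gm17092. Hnrnpl, a regulator that binds CA repeats, was at 4.97, 4.94 and 8.65 FPKM, with ratios of -0.42 in Ercc1 AL against wt AL, 0.41 in Ercc1 DR against Ercc1 AL and 0.02 in Ercc1 DR against wt AL. Hnrnpr was at 1.40, 2.21 and 1.95 FPKM, with a ratio of -0.35 between the mutant libraries. Hnrnph3 went from 0.702 to 0.644 and 0.461 FPKM, under the minimum for a measured ratio.

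Annotated transcripts of the members were set beside those of other genes. In GENCODE M21, 29 of 62 members (46.8%) had a transcript of the nonsense-mediated decay class, beside 27.3% of 10767 protein-coding genes with at least 1 FPKM in any library. A retained-intron transcript was annotated for 44 members (71.0%), beside 56.4%, and both kinds for 40.3% beside 21.6%. The median span was 12190.5 bases, beside 20683 bases. In Ercc1 DR against wt AL the median ratio was 0.24 for the 27 measured members with a decay transcript and 0.26 for the 32 without, and 0.23 for the 42 with a retained intron and 0.51 for the 17 without. In Ercc1 DR against Ercc1 AL these medians were 0.15 and 0.16 for decay transcripts and 0.14 and 0.25 for retained introns, and in Ercc1 AL against wt AL 0.04 and 0.10, and 0.03 and 0.19. Exons of 22 members shared bases with an antisense gene. Strand use is not given in the sources used here, so reads of those pairs cannot be separated. The 38 measured members without such overlap had median ratios of 0.06, 0.15 and 0.26 in the order of comparisons above.

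Splicing genes outside these families gave values on both sides. Over all rows, 2.35%, 3.12% and 6.02% were at least 2-fold higher and 4.90%, 12.0% and 16.4% lower in the order of comparisons above. These shares stand beside the counts of each list below. Among 23 other snRNP genes, Snrnp70, which encodes the U1-70K protein, was the single gene past 2-fold after rescaling. It stood at 10.7 FPKM in wt AL, 11.5 in Ercc1 AL and 6.51 in Ercc1 DR, with ratios of -0.36, -1.03 and -1.33. The list's median was 0.02 in each of the 3 comparisons. As deposited, Snrnp70 had ratios of 0.10, -0.73 and -0.64, so its calls rest on the rescaling. In Ercc1 DR against wt AL, 3 of the 23 were at least 2-fold higher as deposited and 0 lower, beside 24.0% and 8.63% of rows. Lsm5 and Lsm3, of the ring on U6, were the highest. Lsm5 was at 1.02, 2.39 and 3.29 FPKM, with a ratio of 0.45 in Ercc1 AL against wt AL, and Lsm3 at 1.41, 2.79 and 5.43 FPKM and a ratio of 0.85 in Ercc1 DR against wt AL.

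Of 28 measured genes for splice site selection and SR protein kinases, 0 were past 2-fold after rescaling, and the medians were -0.06, 0.05 and 0.08. As deposited, 7 of the 28 were at least 2-fold higher and 0 lower in Ercc1 DR against wt AL, beside 24.0% and 8.63% of rows. The largest ratios in Ercc1 DR against wt AL were those of Srrm2 and Srrm1, scaffold proteins rich in serine and arginine, at 0.99 and 0.96, with 15.1 and 6.99 FPKM in the restricted library against 4.05 and 1.72 FPKM in wt AL. Clk3, a kinase of SR proteins, was at 3.74, 3.59 and 3.25 FPKM, with a ratio of -0.76 there, and Rbm10 had one of -0.46 in Ercc1 AL against wt AL. Of 25 genes of the Prp19 complex and helicases, Cwc22, which loads the exon junction complex, was past 2-fold in 1 comparison after rescaling. It stood at 4.47, 11.5 and 4.73 FPKM, highest in Ercc1 AL, with ratios of 0.77, -1.42 and -0.58. The list's medians were 0.04, 0.11 and 0.23. As deposited, Cwc22 had ratios of 1.20, -1.13 and 0.07. In Ercc1 DR against wt AL, 10 of the 25 were at least 2-fold higher as deposited and 0 lower, beside 24.0% and 8.63% of rows. Bud31 and the helicase Dhx15 had the largest ratios in Ercc1 DR against wt AL, 0.87 and 0.88, at 23.7 and 22.0 FPKM in the restricted library, and Crnkl1 had one of 0.62 in Ercc1 AL against wt AL. Xab2 and Aqr, spliceosome proteins that also bind repair factors of the pathway ERCC1 belongs to, had ratios of -0.10 and 0.54 in Ercc1 DR against wt AL, at 2.85 and 3.25 FPKM in the restricted library.

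Among other RNA binding regulators, 4 of 31 were at least 2-fold higher and 0 lower in Ercc1 DR against wt AL, where 6.02% of rows were higher and 16.4% lower. As deposited, 16 were at least 2-fold higher there, beside 24.0% of rows. Higher by 2-fold after rescaling were 1 in Ercc1 AL against wt AL and 2 in Ercc1 DR against Ercc1 AL, beside 2.35% and 3.12% of rows, and the medians were 0.08, 0.29 and 0.40. Sfpq, a paraspeckle protein, went from 8.14 FPKM in wt AL to 18.4 in Ercc1 AL and 52.0 in Ercc1 DR, with ratios of 0.63, 1.13 and 1.80. Rbm3, a protein induced by cold, was at 3.79, 8.19 and 20.8 FPKM, with a ratio of 1.50, and Cirbp, its relative, at 0.584, 1.01 and 2.52 FPKM, with one of 0.73. Mbnl2, a regulator of tissue-specific exons, was at 1.52, 5.99 and 9.83 FPKM and was 2-fold higher already in Ercc1 AL, at 1.11. Pcbp2, a poly(C) binding protein, was at 2.55, 3.73 and 13.1 FPKM, with a ratio of 1.29 between the mutant libraries. Hnrpll, an hnRNP L relative listed under an older symbol, had ratios of -0.77 in both mutant libraries against wt AL.

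Of 15 genes of the exon junction complex and decay, Upf3a was the one past 2-fold after rescaling, and the list's medians were -0.01, 0.07 and 0.15. It encodes a decay factor that also antagonises decay, and it stood at 34.4, 23.8 and 9.28 FPKM, with ratios of -0.99, -1.58 and -2.51. Its order of libraries was that of Hnrnpul1. In Ercc1 DR against wt AL, 4 of the 15 were at least 2-fold higher as deposited and 1 lower, beside 24.0% and 8.63% of rows. The FPKM of Upf3a lay above its bounds in each library, which were 28.6 to 31.2, 19.8 to 21.9 and 7.57 to 8.86 FPKM. Eif4a3, the core helicase of the junction complex, was at 3.03, 5.04 and 10.2 FPKM, with a ratio of 0.82 in Ercc1 DR against wt AL, and Smg1, the decay kinase, at 1.93, 2.55 and 6.61 FPKM, with one of 0.78. Magoh, of the same complex as Eif4a3, had a ratio of 0.57 in Ercc1 AL against wt AL.

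**Figure D4:**
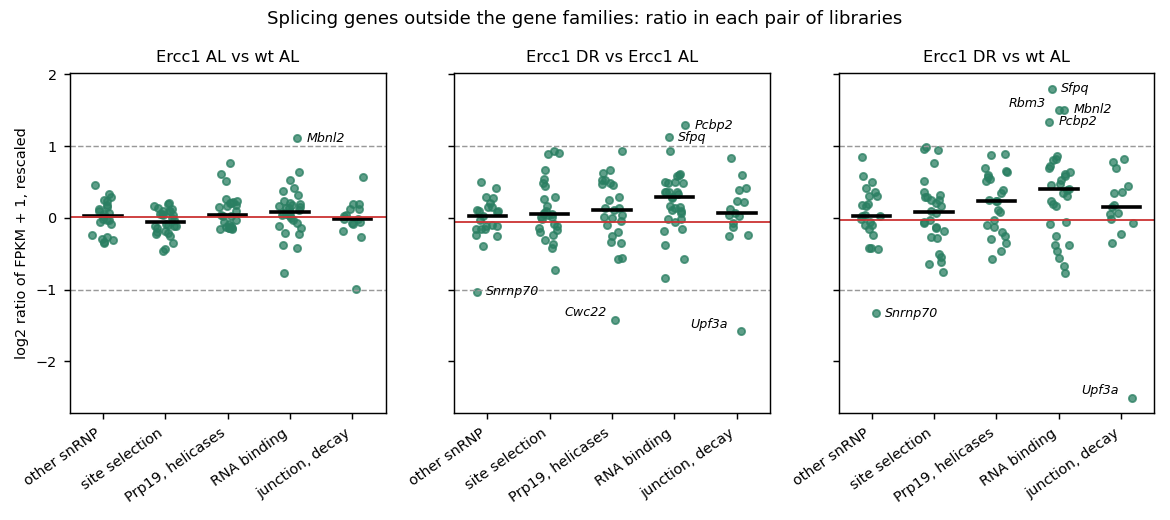
Rescaled log2 ratio of FPKM + 1 of splicing genes outside the Srsf, Hnrnp, Snrp, Sf3 and Prpf families (points) in 5 lists and 3 pairs of libraries, with list medians (black bars), the median of all measured rows (red line) and the 2-fold limits (dashed). Sfpq, Mbnl2, Rbm3 and Pcbp2 lie above the upper limit and Upf3a and Snrnp70 below the lower one in Ercc1 DR against wt AL.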

How the data were processed

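Liver RNA of 3 libraries, 1 per group, was analysed from tables of 23850 rows. The authors deposited FPKM with lower and upper bounds and a status per gene, per the file headers. The genome build was mm10, per the submitters' processing notes, while the aligner, the quantification tool, the annotation and the level of the bounds were not given in the sources used here. Rows with status HIDATA or FAIL (97 in at least 1 library) were treated as missing. No counts are held in the tables, so the depth of each library is unknown and precision was read from the deposited bounds.

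Log2 ratios of FPKM + 1 (pseudocount 1) were computed in Python 3.11.15 with pandas 2.3.3 and numpy 2.4.6. Before the pseudocount was added, the median log2 FPKM ratio of each pair was divided evenly between both libraries. The text names members past 2-fold, the 4 highest and 4 lowest in each comparison, the most abundant of each role, the 2 largest ratios of each list of other splicing genes, Snrnp70, Xab2, Aqr, Cirbp and Rbm3, small RNA rows inside a member, and further members chosen after their values were seen. Members and lists were chosen with earlier results of these data known. The functions were tested on simulated data. Official symbols exclude predicted models and small RNA genes. Deposited starts were raised by 1 to count from 1. Gene models came from GENCODE M21 and promoters and miRNAs from RefSeq, both on GRCm38. Values of 1 member are not reported here by name, and it stays in the counts and medians.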

Additional observations from a re-analysis of the deposited data

How the results depend on the processing

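Each result was recomputed without rescaling, with scaling to the sum without the 100 most abundant rows and small RNA rows, with the median over official symbols, with a pseudocount of 0.1, with no minimum, with a minimum of 5 FPKM, and with interval midpoints. Without rescaling, the median ratio of members became 0.42, 0.46 and 0.92 for Ercc1 AL against wt AL, Ercc1 DR against Ercc1 AL and Ercc1 DR against wt AL, and members past 2-fold became 2 higher and 0 lower in the second and 24 higher in the third. Members with separate intervals then became 42 higher and 3 lower, 47 higher and 1 lower, and 52 higher and 2 lower. Scaled to the sum, separate intervals in the first comparison became 26 higher and 4 lower, and with official symbols 8 were lower in the third. With a pseudocount of 0.1, 1 member (Sf3b1) was past 2-fold higher in the second comparison and 2 were lower in the third. At 5 FPKM, where fewer genes were tested, separate intervals became 10 higher and 3 lower in the first, 1 lower in the second and 2 lower in the third. Changes with the scaling follow from its construction. No value called at 2-fold changed sign, while smaller ratios could. That of Prpf8 in the first comparison was -0.12, but 0.32 without rescaling and 0.03 scaled to the sum. In an alternative added after the data were seen, leaving out the 22 members with antisense exonic overlap kept each count past 2-fold and moved the medians to 0.06, 0.15 and 0.26. No paired analysis was possible because each group has 1 library. Low members have wide bounds, up to 42.9% to either side for Srsf12, so small ratios are not resolved there.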

Other observations

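Small RNA genes lie inside 3 members, on the same strand. Mir7-1, in Hnrnpk (chromosome 13, 58392779 to 58392886), was listed at 2697 FPKM in wt AL, 4448 in Ercc1 AL and 1026 in Ercc1 DR. The deposited bounds of Mir7-1 lay far below these values, at 94.4 to 112, 158 to 179 and 34.8 to 44.2 FPKM, but in the same order of libraries. Hnrnpk itself was highest in Ercc1 DR, at 52.9 FPKM, where Mir7-1 was lowest. The row comes from a total RNA library, and how far it holds fragments of the host or the precursor was not tested. The mature products of the hairpin, from RefSeq (GRCm38.p6), are shown with the seed (bases 2 to 8) in capitals because they are the only miRNAs of a member with a listed value above 10 FPKM.
mmu-miR-7a-5p: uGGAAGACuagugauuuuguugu
mmu-miR-7a-1-3p: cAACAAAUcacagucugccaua
Snord111, a small nucleolar RNA in Sf3b3, was listed at 9738, 15226 and 12355 FPKM. Its bounds also lay far below, at 110 to 135, 176 to 205 and 142 to 169 FPKM. Mir697, in Sf3a3, was listed at 1.67, 2.79 and 0.989 FPKM with lower bounds of 0.

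Spliceosomal RNA rows were also listed, of which Rnu11 and Rnu12 belong to the minor spliceosome, which removes a rare class of introns. Rnu11, the U11 RNA, stood at 7663 FPKM in wt AL, 8722 in Ercc1 AL and 3400 in Ercc1 DR, with a rescaled ratio of -1.69 in Ercc1 DR against Ercc1 AL and -1.95 against wt AL. Rnu12, the U12 RNA, stood at 7893, 8449 and 6979 FPKM, with ratios of -0.61 and -0.96. Rnu6, the U6 RNA, had ratios of -0.27 and -0.35. Its row covers only chromosome 19, 14438480 to 14438506, and stood at 62860, 80948 and 84673 FPKM, with bounds of 105 to 142 FPKM in wt AL. Rnu73b, a nucleolar RNA that the name pattern also took, was at -0.16 and 0.25. The FPKM of each of these RNAs exceeded its bounds in every library, and the bounds were 274 to 304 FPKM for Rnu11 in wt AL.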
